A study of Homo sapiens with 12 samples.

Results

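The 29 genes described here encode the enzymes of cholesterol and fatty acid synthesis and the proteins that regulate them. They were matched by Ensembl identifier, which found 29 of 29 among the 58051 genes counted. The genes were listed by role, with earlier results of these data known. By role they are 18 genes of sterol synthesis, 5 SREBP transcription factors and regulators, the sterol carrier STARD4, and 5 genes of fatty acid synthesis and desaturation. They were measured by RNA-seq in HCT116, an established human colorectal carcinoma cell line.

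Cells received siControl, siPFDN2 or siPFDN5, the last 2 directed against subunits of prefoldin, a chaperone that hands unfolded actin and tubulin to the TRiC chaperonin. Starvation of serum began 24 h after transfection and lasted 48 h in every group. Libraries came from starved cells (before serum) or from cells 90 min after serum was given back, with 2 libraries in each of the 6 groups. All groups share the cell line, the transfection and the starvation, and unstarved or untransfected cells were not analysed here. The labels do not say whether the 2 libraries of a group came from separate cultures, so the p-values measure the spread between these samples, which may be technical.

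Cholesterol is built from acetyl-CoA through mevalonate, isoprenoids, squalene and lanosterol, and fatty acids from malonyl-CoA. When sterols in the endoplasmic reticulum are low, SCAP escorts the SREBP precursors (SREBF1 and SREBF2) to the Golgi, where they are cleaved into active transcription factors for most of these genes. INSIG1 and INSIG2 hold SCAP back when sterols are plentiful. Serum carries lipoproteins as well as growth factors, and growth factor signalling through mTORC1 also acts on SREBP.

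The libraries held 59784425 to 136504590 gene-body counts. The colon epithelial markers EPCAM, KRT8, KRT18, KRT19 and CDH1 were all detected and summed to 1831 to 2870 CPM (counts scaled to the library total). The summed levels were 0.0421 to 0.195 CPM for 3 adipocyte markers, 1.29 to 2.37 CPM for 3 endothelial markers, 4.16 to 16.04 CPM for 4 fibroblast markers and 2.65 to 4.38 CPM for 3 leukocyte markers. No marker was at 0 in all libraries. Of these 18 markers KRT18 rose by 0.33 and the endothelial CDH5 by 2.29 on average after serum (log2 fold change, edgeR). CDH5 was near the floor, at 0.0355 to 0.441 CPM. Mean PECAM1, also endothelial, went from 0.291 to 0.323 CPM in siControl, 0.432 to 0.328 with siPFDN2 and 0.400 to 0.205 in the siPFDN5 pairs. Mean KRT8 went from 736 to 888 CPM, 899 to 907 and 680 to 1138 in the same order. COL1A1, a fibroblast marker, went from 4.58 to 12.1 CPM in siControl and 5.12 to 8.93 in the siPFDN5 pairs, but from 9.81 to 8.13 with siPFDN2. The part of other cell types in the results was not tested. PFDN2 stood at 11.5 and 11.2 CPM with siControl against 7.55 and 8.49 with siPFDN2 before serum, and at 19.5 and 16.3 against 8.73 and 9.47 after it. PFDN5 was at 76.8 and 68.9 CPM with siControl and at 41.0 and 44.2 with siPFDN5 before serum. After serum, however, PFDN5 was at 67.9 and 74.0 CPM with siControl and at 67.5 and 68.6 with siPFDN5. PFDN5 was thus not clearly lower in the siPFDN5 libraries after serum, so these are called the libraries labelled siPFDN5, and every direction drawn from them rests on that label. None of the 4 target comparisons passed an adjusted p of 0.05 (edgeR's quasi-likelihood test).

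One library stood apart. In siPFDN2 before serum replicate 2, the ratio of each of the 29 genes to the other replicate followed the GC content of its transcript, which ran from 34.2% to 65.3% across the genes. The log2 ratio of replicate 2 over replicate 1 ran from -1.515 for STARD4 to 1.618 for FASN, with a Spearman rho against GC content of 0.923 over the 29 genes, which share both libraries. In the siPFDN5 pair before serum the same ratios stayed between -0.085 and 0.173, with a rho of -0.021. Over the 29 genes, log2 differences within a pair had an SD of 0.884 in the siPFDN2 pair before serum and 0.0677 to 0.223 in the other 5 pairs. Over the 29 genes, the Spearman rho between GC content and level relative to the mean of all 12 libraries was 0.913 in this library, -0.0916 to 0.532 in the other 5 before serum and -0.864 to 0.0143 in the 6 after it. Counts of called genes are therefore given with all 12 libraries, with the GC trend of each library removed (gene-body counts only), and without this library. Leaving it out leaves siPFDN2 before serum with 1 library that is assumed to vary like the other groups.

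**Figure D1:**
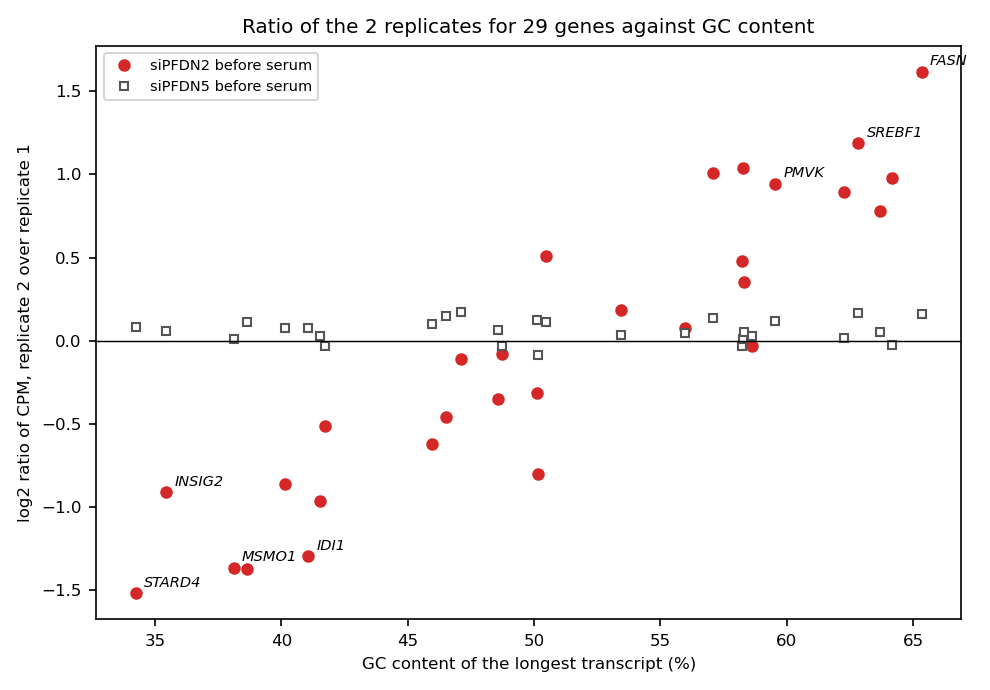
Log2 ratio of CPM between the 2 replicates of a group (vertical axis) against the GC content of the longest transcript in percent (horizontal axis), 1 point per gene for 29 genes. The siPFDN2 ratios before serum (filled circles) climb from -1.515 at STARD4 to 1.618 at FASN, while the siPFDN5 ratios (open squares) stay between -0.085 and 0.173.

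Levels per exon length (RPKM, exon counts divided by exon length and library total) spanned a wide range in starved siControl cells. SCD, the stearoyl-CoA desaturase, led with 395 ± 26.4 RPKM (SD, n = 2), followed by the fatty acid synthase FASN at 71.7 ± 0.377 and the lanosterol demethylase CYP51A1 at 44.7 ± 2.81. The 2 replicates of each of these 3 genes lay apart from those of the next gene. MSMO1 at 35.7 ± 4.81 and FDFT1 at 34.6 ± 0.399 overlapped, as did IDI1, SQLE, HMGCS1, FDPS and INSIG1, whose means ran from 28.3 down to 25.9 RPKM. The lowest were FADS2 at 2.85 ± 0.0981, INSIG2 at 3.09 ± 0.735 and HSD17B7 at 3.39 ± 0.115 RPKM. Levels of FADS1 and FADS2 are uncertain because FADS1 and FEN1 lie inside the FADS2 gene body, and a fragment over several genes was counted for each. In all, 18 of the 29 genes overlap another annotated gene.

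SREBP acts on sterol genes together with the factor NF-Y, which binds CCAAT, and it can also bind the E-box CACGTG. The following 30-base stretches are shown because they hold such letters ahead of genes whose intronic or gene-body counts changed after serum, or, for SREBF2, the one match to the sterol regulatory element core. They are RefSeq sequence of GRCh38.p14, read 5′ to 3′ on the gene's strand, with the matched letters in capitals (ATTGG is CCAAT on the other strand).
HMGCS1: agtttccttttgATTGGtagaagccggact
INSIG1: cgccggcctcccATTGGttgcggccgcctc
INSIG1: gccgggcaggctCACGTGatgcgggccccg
MSMO1: caactgcacagaCCAATcaccgcgccgaga
SC5D: gcgcgcggcgccCACGTGaccgcggagagc
STARD4: ctcccgcgccagCCAATccgaacaagcgca
SREBF2: gatgacgcgccaTCACCCCACgcaccgctt
The HMGCS1 stretch is at chr5:43313550-43313579 (minus strand), the 2 INSIG1 stretches at chr7:155297696-155297725 and chr7:155297811-155297840 (plus), and that of MSMO1 at chr4:165327581-165327610 (plus). SC5D is shown at chr11:121292628-121292657 (plus), STARD4 at chr5:111512648-111512677 (minus) and SREBF2 at chr22:41832960-41832989 (plus). The second INSIG1 stretch and that of SC5D lie before the RefSeq start but inside the gene span of the deposited annotation. Among windows from 250 bases before to 50 after a RefSeq gene start, on both strands, CCAAT was found in 22 of 34 windows of the 25 genes with an entry (64.7%) and in 34.6% of 35116 windows in all. CACGTG was in 5 of the 34 windows (14.7%) against 7.26% of all, and TCACNCCAC in 1 (2.94%) against 1.13%. A match is letters only, and binding was not measured.

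Serum raised a small set of these genes within 90 min, led by HMGCS1 and INSIG1 in all 3 siRNA groups. Averaged over the siRNAs, 6 of the 29 rose (HMGCS1, INSIG1, IDI1, CYP51A1, ACAT2 and SQLE) and 2 fell (FASN and ACACA), 8 in all, where 14.9% of 27915 tested genes were called, 7.6% higher and 7.31% lower (edgeR's quasi-likelihood test on gene-body counts, Benjamini-Hochberg adjusted p under 0.05 over all tested genes). The median log2 fold change was 0.15 over the 29 genes and -0.03 over all genes tested. In these bulk libraries a lower level in every cell and fewer cells with the transcript cannot be told apart. By siRNA, 2 genes rose in siControl, where 2.87% of all genes were called (2.47% higher), and 3 rose in siPFDN2, where 3.26% were (2.06% higher). In the libraries labelled siPFDN5, 4 rose and 1 fell, where 12.2% of all genes were called, 5.72% higher and 6.48% lower.

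The count depended on the library that stood apart. Without siPFDN2 before serum replicate 2 the averaged response held 16 genes that rose and 2 that fell, where 27.5% of 29034 genes were called, and with the GC trend removed it held 14 and 2, where 29.2% were. Without that library the siControl response held 4 genes (all rose, 9.95% of all genes called), the siPFDN2 response 3 (all rose, 4%) and the response in the libraries labelled siPFDN5 17 that rose and 2 that fell (36.3%). With the GC trend removed these counts were 2 (6.67%), 5 (7.6%) and 13, of which 11 rose (29%). Scaling by library totals alone gave 3 genes that rose and 4 that fell in siPFDN2 and 2 and 1 in siPFDN5, and that scaling shifted the median of all genes by -0.20 and -0.15 on the log2 scale. The share of all genes called under that scaling is not given. Its counts are therefore not read as results about these genes.

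**Figure D2:**
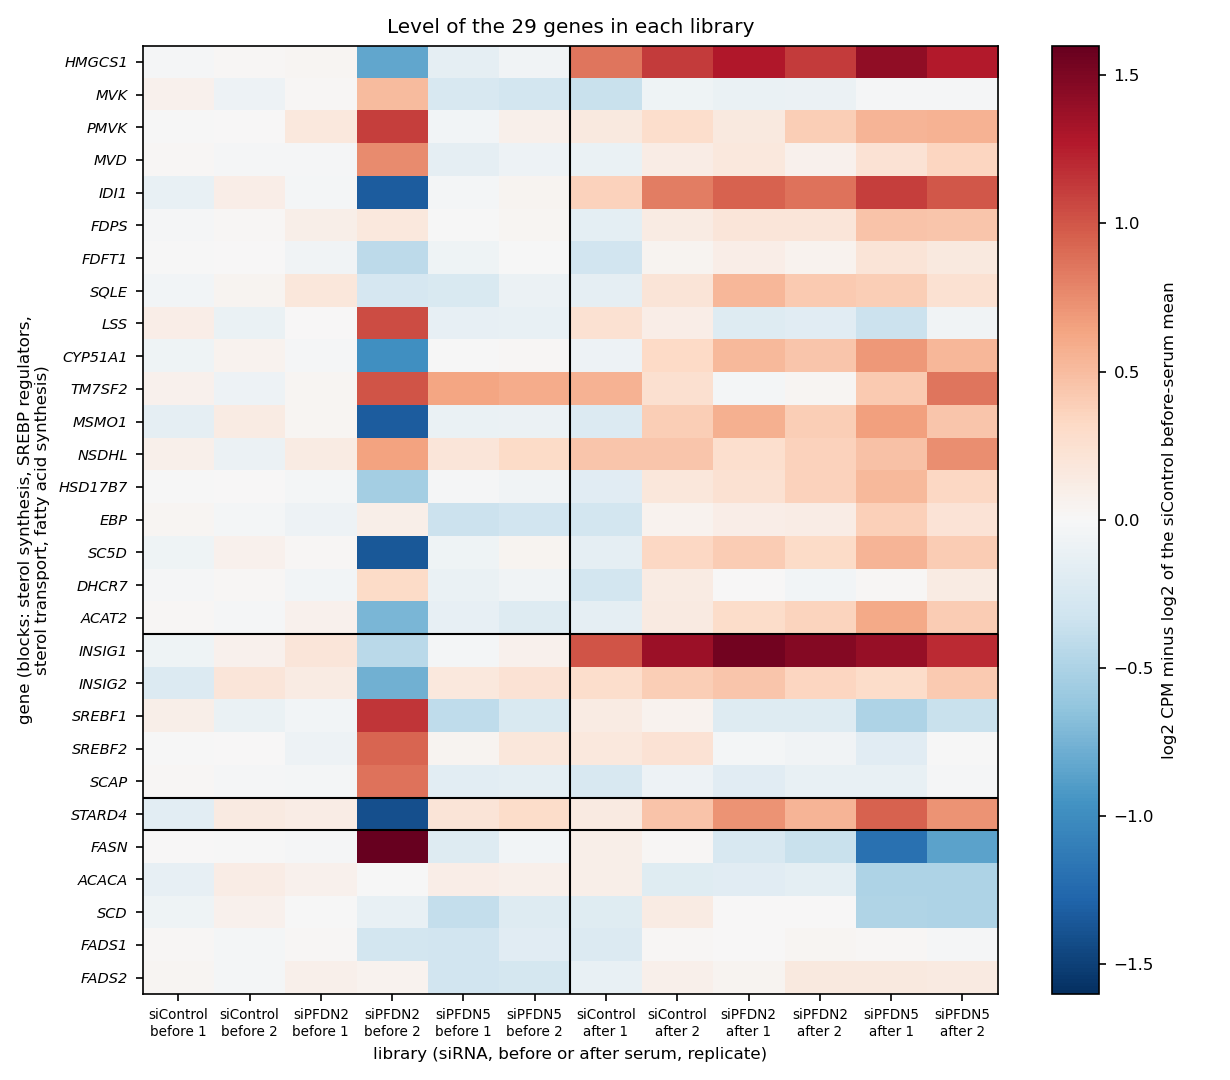
Gene-body level of each of the 29 genes (rows, in blocks by role) in each of the 12 libraries (columns), as log2 CPM minus the log2 of the siControl mean before serum (colour). HMGCS1, INSIG1 and IDI1 are red in all 6 libraries after serum, FASN is blue in the 2 libraries labelled siPFDN5 after serum, and the column of siPFDN2 before serum replicate 2 differs from its partner.

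HMGCS1, the cytosolic HMG-CoA synthase of the mevalonate pathway, was at 109 and 111 CPM with siControl before serum, then at 199 and 239 after it. With siPFDN2 it went from 113 and 62.0 to 267 and 239.7 CPM, and in the siPFDN5 pairs from 99.9 and 105 to 293 and 264. All 6 libraries after serum lay above all 6 before. The edgeR estimate in siControl was a log2 fold change of 0.99 (SE 0.23, adjusted p = 0.046). For siPFDN2 it came to 1.54 (SE 0.23, adjusted p = 0.0047), and for siPFDN5 to 1.44 (SE 0.23, adjusted p = 0.0061). The averaged change of 1.32 (SE 0.13, adjusted p = 7.6e-05) was called in each of 12 fits that left out 1 library. The siControl call held only when either siPFDN2 library before serum was left out and was lost in the other 10 fits, where log2 fold changes of all 12 ran from 0.79 to 1.12 and the adjusted p reached 0.36. The siPFDN5 call was lost without either siPFDN5 library before serum or replicate 1 after it (adjusted p up to 0.092).

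IDI1, the isopentenyl diphosphate isomerase, was at 76.9 and 90.2 CPM with siControl before serum, then at 108 and 148 after it. With siPFDN2 it stood at 81.6 and 33.3 before and at 161 and 152 after, and in the siPFDN5 pairs at 81.7 and 86.1 before and 179.8 and 166 after. Every library after serum was above every library before. The averaged log2 fold change was 1.03 (SE 0.18, adjusted p = 0.0040), called in 12 of 12 leave-one-out fits. In siPFDN2 alone it was 1.45 (SE 0.32, adjusted p = 0.037), which became 0.94 without siPFDN2 before serum replicate 2 and 2.25 without replicate 1. The siPFDN2 call was lost when any of the other 10 libraries was left out (adjusted p up to 0.20).

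CYP51A1 was at 144 and 158 CPM with siControl before serum, then at 143 and 189 after it, so that this pair overlapped. It was at 149 and 76.7 before and 216 and 206 after with siPFDN2, and at 151 and 154 before and 245 and 219 after in the siPFDN5 pairs, both without overlap. The squalene epoxidase SQLE, a rate-limiting step of the sterol branch, was at 97.6 and 103 CPM before and 91.2 and 116 after in siControl. SQLE then stood at 114 and 83.0 before and 145 and 134 after with siPFDN2, and at 85.1 and 94.4 before and 132 and 118 after in the siPFDN5 pairs. ACAT2, the cytosolic acetoacetyl-CoA thiolase, whose gene overlaps TCP1 and SOD2, was at 71.1 and 69.3 CPM before and 63.7 and 77.9 after in siControl. It was at 73.4 and 42.1 before and 86.3 and 90.3 after with siPFDN2, and at 64.3 and 60.6 before and 106 and 93.2 after in the siPFDN5 pairs. For SQLE and ACAT2, too, the siControl pairs overlapped and the other pairs did not.

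The averaged log2 fold changes of these genes were 0.55 (SE 0.15, adjusted p = 0.030) for CYP51A1, 0.34 (SE 0.10, adjusted p = 0.047) for SQLE and 0.43 (SE 0.13, adjusted p = 0.044) for ACAT2 in edgeR's test. None of the 3 was called in any single siRNA with all libraries. Their averaged calls were close to the threshold. Those of CYP51A1 and SQLE held only without either siPFDN2 library before serum or siControl after serum replicate 1, and that of ACAT2 only without either siPFDN2 library before serum. The adjusted p over the 12 fits reached 0.11 for CYP51A1, 0.15 for SQLE and 0.14 for ACAT2.

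**Figure D3:**
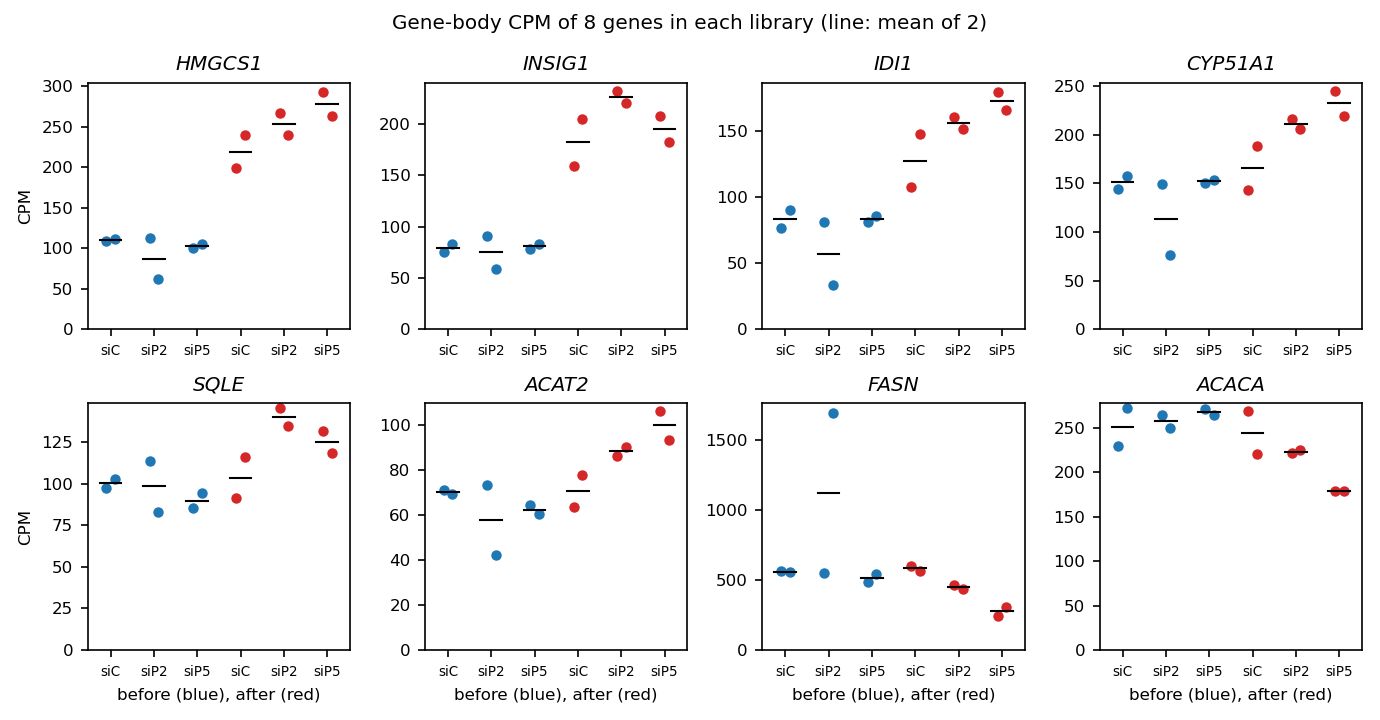
Gene-body CPM (vertical axes, from 0) of 8 genes in each library, with 2 points and a line at their mean for siControl (siC), siPFDN2 (siP2) and siPFDN5 (siP5) before serum (blue) and after it (red). HMGCS1, INSIG1 and IDI1 are higher in every library after serum, and FASN reaches 1693 CPM in 1 siPFDN2 library before serum.

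EBP, the sterol isomerase, was called in the siPFDN5 response alone, with 31.0 and 31.7 CPM before serum and 51.2 and 46.0 after it. It was at 40.2 and 38.5 before and 32.0 and 41.0 after in siControl, and at 37.0 and 42.1 before and 42.3 and 42.7 after with siPFDN2. The siControl values overlapped, while the siPFDN5 values were the lowest before serum and the highest after it. Its log2 fold change in siPFDN5 was 0.63 (SE 0.15, adjusted p = 0.027, edgeR), and the call held only without either siPFDN2 library before serum or either siControl library after it (adjusted p up to 0.20). MSMO1, the sterol methyl oxidase, was at 79.8 and 95.9 CPM before and 75.3 and 115 after in siControl. With siPFDN2 it was at 90.0 and 35.0 before and at 130.4 and 115 after, and in the siPFDN5 pairs at 81.7 and 82.3 before and 138 and 119.7 after. Its averaged log2 fold change of 0.58 (SE 0.20) had an adjusted p of 0.072 with all libraries and was 0.41 (SE 0.12, adjusted p = 0.048) without the library that stood apart.

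MVK, the mevalonate kinase, held the most negative log2 fold change of the siControl response, -0.21 (SE 0.18, adjusted p = 0.76), with 25.3 and 22.8 CPM before and 18.8 and 22.9 after. It was at 24.5 and 34.1 before and 22.4 and 22.5 after with siPFDN2, and at 20.1 and 19.6 before and 23.7 and 23.8 after in the siPFDN5 pairs. TM7SF2, a sterol reductase, was at 15.8 and 14.2 CPM before and 21.95 and 18.0 after in siControl. Its level was 15.3 and 30.2 before and 14.7 and 15.4 after with siPFDN2, and 23.2 and 22.7 before and 20.02 and 27.2 after in the siPFDN5 pairs. The averaged log2 fold changes of MVK and TM7SF2 were -0.11 and -0.05, and neither passed the test. The other 9 sterol synthesis genes (PMVK, MVD, FDPS, FDFT1, LSS, NSDHL, HSD17B7, SC5D and DHCR7) had averaged log2 fold changes from -0.24 (LSS) to 0.49 (SC5D), and none was called with all libraries. Without the library that stood apart, 13 of the 18 sterol synthesis genes were called and all 13 rose, where 27.5% of all genes were called and 14.9% rose, with NSDHL at 0.33 (SE 0.07, adjusted p = 0.0026) and SC5D at 0.32 (SE 0.08, adjusted p = 0.018) in edgeR's test.

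INSIG1 showed the largest averaged response of the 29. It was at 75.5 and 83.5 CPM with siControl before serum, then at 159 and 205 after it, at 91.0 and 59.1 before and 232 and 220.2 after with siPFDN2, and at 78.0 and 83.4 before and 208 and 182 after in the siPFDN5 pairs. No library after serum overlapped one before. On the log2 scale siControl gave 1.20 (SE 0.20, adjusted p = 0.0081), siPFDN2 gave 1.59 (SE 0.21, adjusted p = 0.0015), siPFDN5 gave 1.27 (SE 0.20, adjusted p = 0.0058) and the average was 1.35 (SE 0.12, adjusted p = 2.3e-05). The averaged and siPFDN2 calls held in 12 of 12 leave-one-out fits. The siControl call was lost without either siControl library before serum or replicate 2 after it (adjusted p up to 0.15), and the siPFDN5 call without either siPFDN5 library before serum or replicate 1 after it (adjusted p up to 0.093).

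The other regulators did not pass the test in gene-body counts. Averaged log2 fold changes were 0.38 (SE 0.14) for INSIG2, -0.29 (SE 0.16) for SREBF1, -0.19 (SE 0.14) for SREBF2 and -0.24 (SE 0.13) for SCAP, with adjusted p-values from 0.096 to 0.37. STARD4, which carries sterol between membranes, was at 63.5 and 78.8 CPM with siControl before serum, then at 78.3 and 97.6 after it. It was at 77.03 and 26.9 before and 117 and 104 after with siPFDN2, and at 82.4 and 87.4 before and 137 and 117 after in the siPFDN5 pairs. Only the siControl values overlapped. The averaged log2 fold change of STARD4 was 0.66 (SE 0.21, adjusted p = 0.054) with all libraries and 0.47 (SE 0.08, adjusted p = 0.0021) without siPFDN2 before serum replicate 2.

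FASN, which makes palmitate, was the member most affected by that library. Its level was 564 and 557 CPM with siControl before serum, then 600.4 and 568 after it, both above both before. With siPFDN2 it was 552 and 1693 before and 468 and 437 after, and in the siPFDN5 pairs 487 and 544 before and 246 and 309 after. The siPFDN2 pair before serum thus differed more than any other pair, while the libraries labelled siPFDN5 after serum were the lowest of the 12. The averaged log2 fold change was -0.71 (SE 0.21, adjusted p = 0.045) with all libraries and -0.37 (SE 0.07, adjusted p = 0.00085) without siPFDN2 before serum replicate 2. The first of these calls was lost when any library other than the 2 siPFDN2 libraries before serum was left out (adjusted p up to 0.13). Within siPFDN5 the log2 fold change was -0.89 with an adjusted p of 0.13 (SE 0.37) with all libraries and of 6.3e-05 (SE 0.11) without that library.

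ACACA, the acetyl-CoA carboxylase that supplies malonyl-CoA, was at 229.9 and 273 CPM with siControl before serum, then at 269 and 220.1 after it. It was at 264 and 249.95 before and 221 and 225 after with siPFDN2, and at 271 and 265 before and 179 and 179 after in the siPFDN5 pairs. The siControl values overlapped, and those of the other 2 siRNAs did not. In siPFDN5 it changed by -0.58 on the log2 scale (SE 0.14, adjusted p = 0.030), and on average by -0.28 (SE 0.08, adjusted p = 0.048). The siPFDN5 call held only without either siPFDN2 library before serum or either siControl library after it (adjusted p up to 0.21), and the averaged call only without either siPFDN2 library before serum or siControl after serum replicate 1 (adjusted p up to 0.16).

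FADS2, the delta-6 desaturase, was at 237 and 225 CPM with siControl before serum, then at 213 and 244 after it, at 245 and 239.7 before and 239 and 257 after with siPFDN2, and at 187 and 191 before and 258 and 255 after in the siPFDN5 pairs. Its log2 fold change in siPFDN5 was 0.44 (SE 0.13, adjusted p = 0.048). The call held only without either siPFDN2 library before serum or either siControl library after it (adjusted p up to 0.28), and the value is not one of FADS2 alone. Of its gene-body counts 88.1% to 90.2% lay outside FADS2 exons in the group means, and FEN1, a replication nuclease inside its span, was at 85.3 and 80.4 CPM before and 132 and 132 after in the siPFDN5 pairs. Over FADS2 exons the log2 fold change in siPFDN5 was 0.25 (SE 0.15, adjusted p = 0.36). SCD and FADS1 had averaged log2 fold changes of -0.05 and 0.10 and did not pass the test. Across the 5 fatty acid genes none rose and 2 fell on average, where 7.6% of all genes rose and 7.31% fell. These 2, FASN and ACACA, did not fall clearly in siControl, where FASN lay higher after serum and ACACA overlapped.

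Intronic counts, the gene-body counts less the exon counts, come largely from transcripts not yet spliced. The averaged log2 fold change was larger there than over exons for HMGCS1, MSMO1, SC5D and CYP51A1 but smaller for IDI1 (0.85 against 1.00), and the difference between introns and exons was not tested. On average 14 of the 29 genes rose and 4 fell, where 29.3% of 19731 tested genes were called, and the median log2 fold change was 0.42 over the 29 and -0.01 over all. Among the 18 sterol synthesis genes 11 rose and 1 fell. Exon counts alone gave 4 genes, HMGCS1 at 1.24, INSIG1 at 1.31, IDI1 at 1.00 and CYP51A1 at 0.51 (log2 fold change), where 11% of 24889 genes were called (5.85% higher, 5.11% lower). By siRNA, exon counts gave 1 gene that rose in siControl (2.13% of genes called, 1.73% higher), 3 that rose in siPFDN2 (2.53%, 1.67% higher) and 2 that rose in siPFDN5 (4.22%, 2.72% higher and 1.49% lower). For the single siRNAs the intronic counts gave 6 genes that rose in siControl (8.63% of all genes called), 11 that rose and 2 that fell in siPFDN2 (11.8%), and 8 and 1 in siPFDN5 (27.8%). Without siPFDN2 before serum replicate 2 the averaged response held 15 and 4 (28.1%), and the single siRNAs 10 and 0 (12.2%), 4 and 0 (3.95%), and 11 and 3 (35.9%).

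Intronic HMGCS1 was at 25.2 and 22.7 CPM with siControl before serum, then at 122 and 115 after it, at 25.8 and 15.1 before and 139 and 104 after with siPFDN2, and at 25.8 and 23.9 before and 84.9 and 78.0 after in the siPFDN5 pairs. The averaged intronic log2 fold change was 2.20 (SE 0.16, adjusted p = 3.0e-08), against 1.24 (SE 0.13) over exons. INSIG1 introns went from 14.2 and 12.5 CPM to 40.4 and 48.6 in siControl, from 16.2 and 13.4 to 61.5 and 49.4 with siPFDN2, and from 15.6 and 12.9 to 29.9 and 28.5 in the siPFDN5 pairs. For both genes every library after serum exceeded every library before. MSMO1 introns went from 19.7 and 20.3 CPM to 34.6 and 45.2 in siControl and from 19.6 and 19.8 to 39.2 and 35.7 in the siPFDN5 pairs. SC5D, the lathosterol desaturase, went from 3.42 and 3.60 CPM to 6.04 and 9.07 and from 3.39 and 3.73 to 6.73 and 5.76 in the same groups. With siPFDN2, MSMO1 introns stood at 20.2 and 10.6 before and 58.1 and 38.4 after, and SC5D introns at 3.72 and 2.53 before and 10.1 and 7.09 after, again without overlap. Their averaged intronic log2 fold changes were 1.19 (SE 0.16, adjusted p = 4.6e-05) and 1.12 (SE 0.17, adjusted p = 0.00010), while neither passed the test over exons (0.52 and 0.44).

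Further genes that rose in intronic counts on average were CYP51A1 at 0.99, ACAT2 at 0.94, STARD4 at 0.88, IDI1 at 0.85, MVD at 0.85, HSD17B7 at 0.75, SQLE at 0.60, DHCR7 at 0.49, INSIG2 at 0.47 and MVK at 0.46. SREBF1, which encodes SREBP-1, fell by 0.75 (SE 0.17, adjusted p = 0.0029) and the lanosterol synthase LSS fell by 0.66 (SE 0.15, adjusted p = 0.0037) on the log2 scale. SCD fell by 0.45 and SCAP fell by 0.38. SREBF1 introns stood at 66.4 and 58.5 CPM before and 47.1 and 46.5 after with siControl, at 55.8 and 118 before and 41.4 and 35.0 after with siPFDN2, and at 46.1 and 44.4 before and 28.2 and 30.03 after under siPFDN5, without overlap within any siRNA. Calls of 12 of these 18 genes held in 12 of 12 leave-one-out fits, namely HMGCS1, INSIG1, MSMO1, SC5D, CYP51A1, ACAT2, STARD4, IDI1, MVD, HSD17B7, LSS and SREBF1. The call of SQLE was lost without siPFDN5 after serum replicate 1. Calls of MVK, DHCR7, INSIG2, SCAP and SCD were lost without 7 to 9 of the 12 libraries, the 2 siPFDN5 libraries before serum among them in each case. The GC trend was not removed from intronic counts, and leaving out 1 library does not remove it. Of the 18 genes, 8 (MVD, SQLE, MSMO1, HSD17B7, SC5D, INSIG1, INSIG2 and SCD) overlap no other annotated gene, while in the rest reads of an overlapping gene could enter the intronic counts.

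The share of all counts that was intronic ran from 14.8% to 25.9% per library and was highest in the siPFDN5 libraries before serum (22.8% and 25.9%), against 17.2% and 14.8% in those after it. Directions in the siPFDN5 response therefore turned on the scaling. With intronic counts scaled by the gene-body totals, the median of all genes moved by -0.68 on the log2 scale in that response, and 2 of the 29 genes rose (HMGCS1 at 1.02 and FADS2 at 0.45) while 8 fell, where 41.6% of all genes were called. On average 10 rose and 5 fell under that scaling (31.3% of all called), with HMGCS1 at 1.97, INSIG1 at 1.31, MSMO1 at 0.95 and SC5D at 0.87. The 6 genes of the siControl response (HMGCS1, INSIG1, IDI1, MSMO1, SC5D and STARD4) rose under both scalings.

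**Figure D4:**
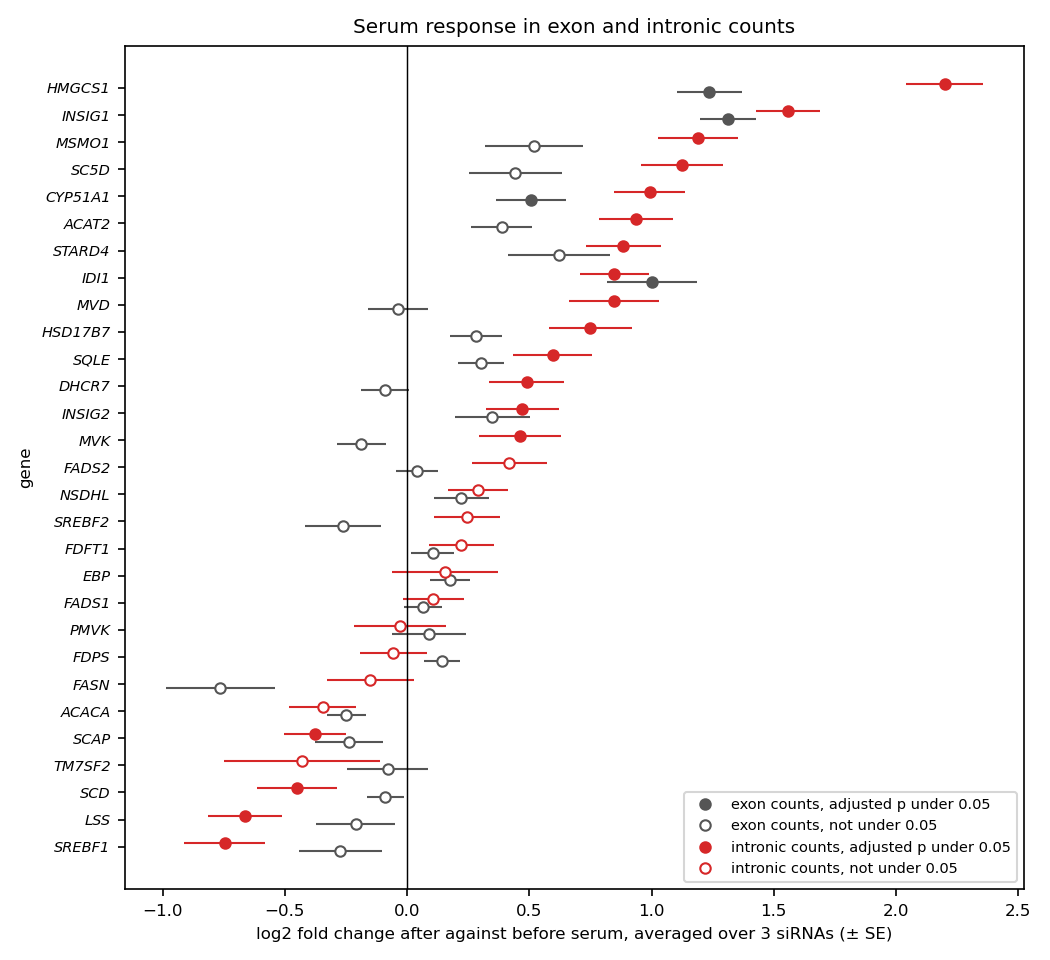
Log2 fold change after against before serum, averaged over the 3 siRNAs with its SE (horizontal axis), for each of the 29 genes (vertical axis) in exon counts (grey) and intronic counts (red), with filled points at an adjusted p under 0.05. The intronic point lies to the right of the exon point for HMGCS1 (2.20 against 1.24) and MSMO1 (1.19 against 0.52) and to the left for SREBF1 and LSS.

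The question of the knockdowns is whether prefoldin subunits alter these genes in starved or serum-treated cells. Both knockdowns were compared with the same siControl libraries, so the comparisons are not independent. Before serum no member was called in siPFDN2, where 0% of all genes were called, or in siPFDN5, where 0.00716% were. At an unadjusted p under 0.05 edgeR gave 6 of the 29 in siPFDN2 (all higher) and 2 in siPFDN5, where 11.3% and 12.3% of all genes passed. DESeq2 called 0 of the 29 in both, where it called 0.153% and 1.33% of the genes it gave an adjusted p. In siPFDN2 the extremes were FASN at 1.00 (SE 0.37, adjusted p = 0.44) and IDI1 at -0.54 (SE 0.32, adjusted p = 0.49) on the log2 scale, which were -0.02 and -0.03 without siPFDN2 before serum replicate 2. In siPFDN5 they were TM7SF2 at 0.61 (SE 0.27, adjusted p = 0.39) and EBP at -0.33 (SE 0.15, adjusted p = 0.42). TM7SF2 was at 23.2 and 22.7 CPM in siPFDN5 against 15.8 and 14.2 in siControl, and EBP at 31.0 and 31.7 against 40.2 and 38.5, with no overlap in either case. Without the library that stood apart TM7SF2 was called at 0.61 (SE 0.14, adjusted p = 0.024) and SREBF1 at -0.33 (SE 0.09, adjusted p = 0.045), where 6.96% of all genes were called. With the GC trend removed only TM7SF2 was, at 0.77 (SE 0.15, adjusted p = 0.048), where 0.77% were.

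After serum no member was called in siPFDN2 (0% of all genes) or in the libraries labelled siPFDN5 (0.00358%), with 1 and 6 of the 29 at an unadjusted p under 0.05 in edgeR, where 6.26% and 21.6% of all genes passed. DESeq2 called 0 of the 29 in siPFDN2 (0.00716% of all genes). It called FDPS at 0.47 (SE 0.15, adjusted p = 0.031) and FASN at -1.05 (SE 0.35, adjusted p = 0.040) in siPFDN5, where 8.24% of genes were called. The 6 of 29 in siPFDN5 are thus close to the share of all genes. The extremes in siPFDN2 were SQLE at 0.43 (SE 0.18) and TM7SF2 at -0.41 (SE 0.27), with adjusted p-values of 0.77 and 0.78. Those in siPFDN5 were STARD4 at 0.53 (SE 0.36, adjusted p = 0.41) and FASN at -1.07 (SE 0.37, adjusted p = 0.14). FASN measured 246 and 309 CPM under the siPFDN5 label and 600.4 and 568 in siControl, SCD at 1239 and 1227 against 1511 and 1899.6, and SREBF1 at 83.5 and 92.3 against 129 and 123. In each of these 3 genes both libraries of one group lay below both of the other.

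That comparison changed most when siPFDN2 before serum replicate 2, which belongs to neither group, was left out of the estimate of spread. The FASN log2 fold change was -1.07 either way while its SE went from 0.37 to 0.11, and 11 members were higher and 6 lower in siPFDN5 after serum, where 23.9% of all genes were called. The 6 lower were FASN at -1.07 (SE 0.11, adjusted p = 0.00025), SREBF1 at -0.51 (SE 0.09, adjusted p = 0.0019), SCD at -0.46 (SE 0.11, adjusted p = 0.011), ACACA at -0.45 (SE 0.10, adjusted p = 0.0075), LSS at -0.36 and SREBF2 at -0.28. Of the 11 higher, 10 were sterol synthesis genes, with FDPS at 0.46 (SE 0.09, adjusted p = 0.0035), ACAT2 at 0.50 (SE 0.10, adjusted p = 0.0035) and CYP51A1 at 0.49 (SE 0.11, adjusted p = 0.0097), and the other was STARD4 at 0.54 (SE 0.13, adjusted p = 0.017). With the GC trend removed FASN, SREBF1, SCD and ACACA were lower, by log2 changes of -1.13, -0.58, -0.55 and -0.54, and none was higher, where 13.6% of all genes were called. In intronic counts FASN had a log2 difference of 0.53 (SE 0.31, adjusted p = 0.27) and no member was called (3.8% of all genes), with 6 of the 29 at an unadjusted p under 0.05, where 27.7% of all genes passed. Without siPFDN2 before serum replicate 2, intronic INSIG1 (-0.61), INSIG2 (-0.79) and SREBF1 (-0.68) were lower and FADS2 (0.78) higher, where 16% of all genes were called. These intronic values depend on the scaling. With gene-body scaling of the intronic counts the median of all genes moved by -0.63 on the log2 scale in this comparison. The siPFDN5 libraries after serum carry PFDN5 near the siControl level, as given above.

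**Figure D5:**
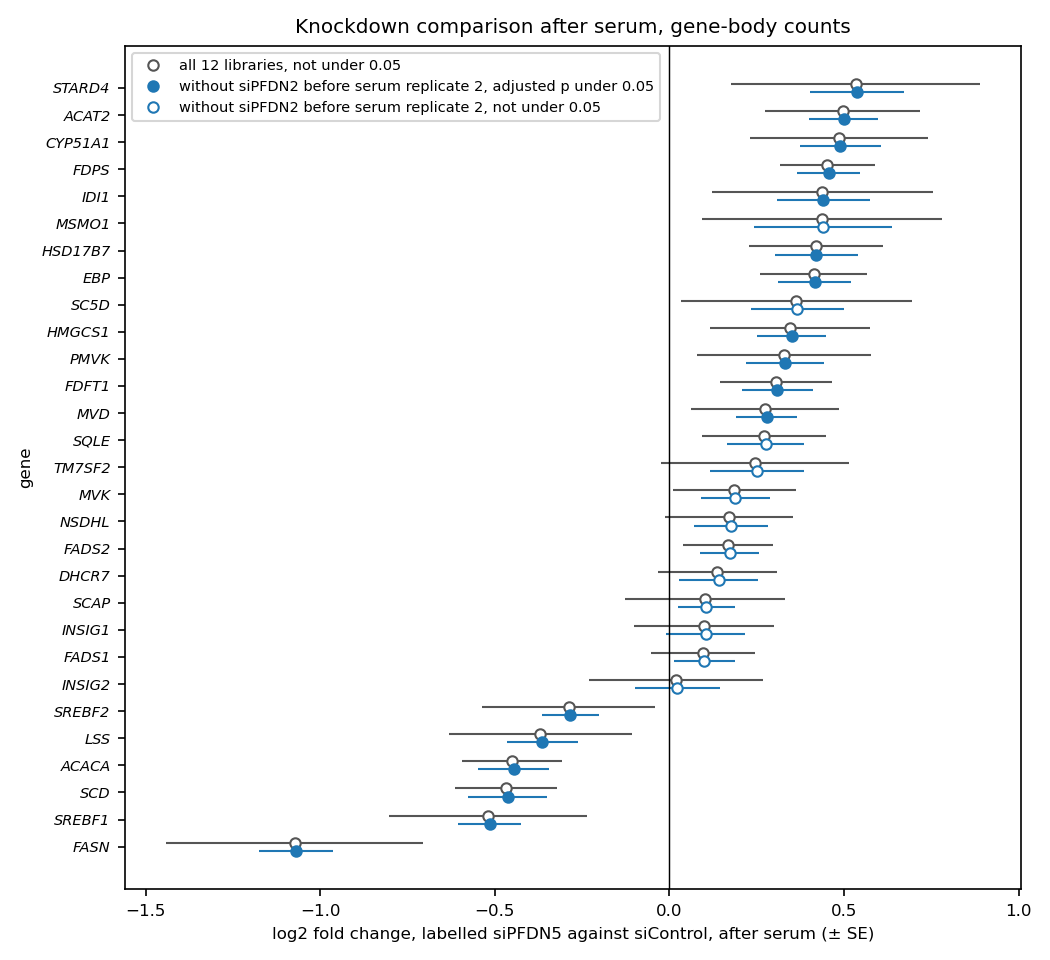
Log2 fold change of the libraries labelled siPFDN5 against siControl after serum with its SE (horizontal axis) for each of the 29 genes (vertical axis), with all 12 libraries (grey) and without siPFDN2 before serum replicate 2 (blue), filled where the adjusted p was under 0.05. The 2 estimates of a gene nearly coincide (FASN at -1.07 in both), while the error bars without that library are shorter.

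Whether serum acted differently after a knockdown was tested as a difference of the 2 responses. No member was called for siPFDN2 minus siControl or for siPFDN5 minus siControl, where 0% and 0% of all genes were called. Each difference held 4 of the 29 at an unadjusted p under 0.05 in edgeR, where 6.6% of all genes passed for siPFDN2 and 20.9% for siPFDN5. DESeq2 called 0 of the 29 for siPFDN2 (0.00716% of all genes) and EBP for siPFDN5, at 0.76 (SE 0.25, adjusted p = 0.037), where 6.85% of genes were called. The extremes for siPFDN2 were MSMO1 at 0.86 (SE 0.49) and FASN at -1.37 (SE 0.52), both with an adjusted p of 0.58, and the FASN value was -0.34 without siPFDN2 before serum replicate 2. For siPFDN5 they were EBP at 0.74 (SE 0.22, adjusted p = 0.10) and FASN at -0.95 (SE 0.52, adjusted p = 0.32). Without the library that stood apart the siPFDN5 difference was called in 11 members, 8 higher and 3 lower, where 21.8% of all genes were called, and with the GC trend removed in EBP, FASN and ACACA, where 7.23% were. In intronic counts it was called in INSIG2 at -1.23 and FADS2 at 1.24, where 12.5% were. Both calls held in 3 of 12 leave-one-out fits, those without either siPFDN2 library before serum or siControl after serum replicate 2 (adjusted p up to 0.19 and 0.20). Intronic INSIG2 was 7.82 and 7.29 CPM before and 14.9 and 10.9 after serum with siControl, and 10.7 and 9.62 before and 6.09 and 8.64 after under siPFDN5. The siControl values lay higher after serum and the siPFDN5 values lower, without overlap. The FASN difference took opposite signs in the 2 kinds of count without siPFDN2 before serum replicate 2, at -0.94 (SE 0.15, adjusted p = 0.0056) in gene-body counts and 1.27 (SE 0.36, adjusted p = 0.027) in intronic counts, where 24.6% of all genes were called. FASN introns were 83.2 and 70.8 CPM before and 37.3 and 71.1 after serum with siControl, and 44.0 and 48.6 before and 82.8 and 74.1 after under siPFDN5. On these values, scaled to the intronic totals, the siControl pairs overlapped, and the siPFDN5 pairs did not. The unscaled intronic FASN counts under siPFDN5 were 609 and 677 before serum and 775 and 849 after it. Their libraries held 59784425 and 69515213 gene-body counts before serum and 81124875 and 90740656 after it. With gene-body scaling of the intronic counts the median of all genes moved by -0.81 on the log2 scale in this difference. The intronic FASN values are not given under that scaling, so a rise of FASN introns under siPFDN5 is not shown there.

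Other genes of sterol and fatty acid metabolism, from lists chosen by role, were described in the same way. On average after serum none of 16 other synthesis enzymes and none of 9 other SREBP-driven genes was called, at medians of 0.10 and 0.04 on the log2 scale. Among 9 genes of SREBP processing RNF139, an ubiquitin ligase of the endoplasmic reticulum, rose by 0.87 (SE 0.17, adjusted p = 0.0074). NPC1, which exports cholesterol from lysosomes, was the one gene of 6 in sterol storage and transport to rise, at 0.53 (SE 0.07, adjusted p = 0.00083). Of 6 LXR and sterol efflux genes none rose and 2 fell, ABCG1 by 0.57 and MYLIP by 0.50 on the log2 scale.

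In intronic counts the LXR and efflux list had a median of -0.77, with 4 of its 6 genes lower and none higher, where 29.3% of all genes were called, 14.2% higher and 15.1% lower. ABCA1, the cholesterol exporter, was at 5.25 and 4.69 CPM with siControl before serum, then at 1.63 and 1.36 after it, at 2.92 and 3.09 before and 1.10 and 1.64 after with siPFDN2, and at 5.63 and 4.31 before and 1.496 and 1.48 after in the siPFDN5 pairs. Its averaged log2 fold change was -1.52 (SE 0.18, adjusted p = 8.0e-06), and that of its relative ABCG1 was -1.92 (SE 0.24, adjusted p = 1.4e-05). Both kept their direction with gene-body scaling (-1.77 and -2.17). ABCG1 introns were near the floor, at 1.77 to 2.60 CPM before serum and 0.183 to 0.855 after it. Over exons, mean ABCA1 went from 7.36 to 8.43 CPM in siControl and from 4.51 to 4.76 with siPFDN2. In the siPFDN5 pairs it went from 7.37 to 5.47 over exons. Of the 16 other synthesis enzymes 3 rose and 3 fell, with ELOVL7 at 0.93, TECR at 0.87, ACACB at -0.91 and SCD5 at -0.48. Intronic means of TECR rose and those of ACACB fell under every siRNA. Those of SCD5 went from 38.2 to 37.7 CPM in siControl, 33.0 to 29.8 with siPFDN2 and 63.6 to 26.1 in the siPFDN5 pairs. Those of ELOVL7 went from 24.7 to 79.4 CPM, 20.5 to 45.6 and 41.1 to 39.9 in the same order. The siControl libraries after serum held ELOVL7 at 117 and 41.5 CPM. LPIN1 at 0.71 and PANK3 at 0.54 were the 2 called among 9 other SREBP-driven genes. NPC1 rose by 0.64 while STARD3 fell by 0.66 and GRAMD1A fell by 0.52, and RNF139 rose by 0.70 while ERLIN1 fell by 0.46 and SEC24A fell by 0.40 on the log2 scale.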

How the data were processed

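RNA-seq of 12 HCT116 libraries, 2 in each of 6 groups, was analysed. RNA was column-purified and reverse transcribed with random hexamers after 18S rRNA depletion, per the labels' protocols. HISAT2 0.12.2, featureCounts 1.5.2, kallisto 0.43 and the build GRCh38.p7 are named in the submitters' processing notes. The deposited gene-body and exon tables hold whole-number fragment counts made by featureCounts on Ensembl release 87, unstranded and counting a fragment for each gene it overlaps, per the file headers. The deposited transcript files hold estimated counts, which were summed per gene and rounded for an alternative. Of the per-sample columns in each gene file, 6 matched no sample label and were not used.

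Intronic counts are gene-body minus exon counts. CPM values computed here from the deposited counts use TMM-scaled totals. Genes were filtered with filterByExpr and fitted with edgeR 4.0.16 (limma 3.58.1, R 4.3.3, quasi-likelihood test, 6 group means, all 12 libraries). SE is the log2 fold change divided by the root of F. P-values were Benjamini-Hochberg adjusted over all tested genes. The GC trend of each library was removed with a lowess (span 0.3, 3 iterations, genes with a mean log2 CPM of at least 3). DESeq2 1.42.0 was an alternative. The procedure was run on simulated counts for the averaged response only. Those counts had the same dispersion for every gene, no GC trend and no library that stood apart. They therefore cannot show how the procedure behaves on these libraries. Libraries with the same replicate number were not treated as pairs in the main fit. The correlation of same-numbered deviations between groups ran from -0.322 to 0.592. The GC trend was not removed from it, so it cannot settle whether the numbers mark pairs.

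The genes, lists and alternatives were chosen with earlier results of these data known. Values in every library are given for genes called in gene-body counts of all 12 libraries, for some genes in intronic counts chosen after their values were seen, and for the largest change each way in each comparison, and from other lists up to 2 genes each way.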

Additional observations from a re-analysis of the deposited data

Results flagged for a closer look

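The difference between the serum responses of the libraries labelled siPFDN5 and siControl was tested with edgeR's quasi-likelihood test (adjusted over all genes, 2 libraries a group). With gene-body counts of all 12 libraries none of the 29 genes was called. Other settings called some of them, and the shares of all genes called there are given above. In intronic counts the 2 calls among the 29 fell below that share. In intronic counts the log2 difference was -1.23 (SE 0.37, adjusted p = 0.041) for INSIG2 and 1.24 (SE 0.38, adjusted p = 0.044) for FADS2, whose introns hold FADS1 and FEN1. Both calls held in 3 of 12 fits that left out 1 library (adjusted p up to 0.19 and 0.20). With gene-body scaling of the intronic counts INSIG2 was at -2.08 and FADS2, not called, at 0.47. That scaling moved the median of all genes by -0.81 on the log2 scale. The intronic FASN difference below is given without it.

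With the GC trend removed the difference was 0.58 for EBP, -1.17 for FASN and -0.66 for ACACA, each at an adjusted p of 0.047. Without siPFDN2 before serum replicate 2 it was positive for 8 genes, namely EBP at 0.75, ACAT2 at 0.67, CYP51A1 at 0.49, MVK at 0.47, FADS2 at 0.47, HMGCS1 at 0.45, FDPS at 0.45 and MVD at 0.40. It was negative for FASN at -0.94, ACACA at -0.53 and SREBF2 at -0.40. In that fit 21.8% of all genes were called, 12.2% higher and 9.58% lower. The adjusted p-values of these 11 ran from 0.0056 to 0.049. In intronic counts the FASN difference had the opposite sign, 1.27 (SE 0.44, adjusted p = 0.064) with all libraries and 1.27 (SE 0.36, adjusted p = 0.027) without that library. PFDN5 itself rose in the siPFDN5 pairs, by 0.68 on the log2 scale (SE 0.14, adjusted p = 0.016).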

How the results depend on the processing

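The 2 libraries a group limit every comparison, and 1 library set much of the spread. Leaving out each of the 12 libraries in turn gave 0 to 4 called genes in the siControl response, 2 to 22 in siPFDN2, 0 to 19 in siPFDN5 and 3 to 23 on average. The ranges were 0 to 22 and 0 to 2 for siPFDN2 and siPFDN5 against siControl before serum, 0 to 0 and 0 to 17 after it, and 0 to 22 and 0 to 11 for the differences of response. In intronic counts they were 2 to 10, 4 to 16, 1 to 14 and 13 to 19 for the 4 responses and 0 to 4 and 0 to 5 for the differences. The share of all genes called in each fit is not given with these ranges, so they are not read as results about these genes.

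Counts below run over the responses of siControl, siPFDN2, siPFDN5 and their average, against 2, 3, 5 and 8 with edgeR on gene-body counts. DESeq2 gave 10 in siPFDN2, where it called 13.9% of genes, and 8 in siPFDN5, where it called 17.8%. It gave 2 in siPFDN5 against siControl after serum (8.24%) and 1 in the siPFDN5 difference (6.85%). Exon counts gave 1 in siControl, 2 in siPFDN5 and 4 on average, and transcript sums 1, 3 and 4. Intronic counts gave 6, 13, 9 and 18, and 2 in the siPFDN5 difference, which was 10 with gene-body scaling. Under that scaling 40 genes were called higher and 6239 lower in this difference, of 19731 tested. The 10 are therefore not read as a result about these genes. Library size alone gave 7 in siPFDN2 and 3 in siPFDN5. No filter gave 15 in siPFDN2, 10 in siPFDN5, 14 on average, 4 in siPFDN2 before serum, 1 in siPFDN5 after it, and 4 and 1 in the differences. With the GC trend removed the counts were 5 in siPFDN2, 13 in siPFDN5, 16 on average, 1 in siPFDN5 before serum, 4 after it and 3 in the siPFDN5 difference. Fitting only the libraries compared gave 0 in siPFDN2, 23 in siPFDN5, 7 in siPFDN5 before serum, 4 after it and 6 in the siPFDN5 difference. For transcript sums, library size alone, no filter, only the libraries compared and the replicate block, the share of all genes called is not given. Those counts are therefore not read as results about these genes.

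The replicate block gave 1 gene in siControl, 4 in siPFDN5 and 6 on average. The replicate block with the GC trend removed gave 5 in siPFDN2, 12 in siPFDN5, 17 on average and 4 in siPFDN5 after serum. The replicate block without siPFDN2 before serum replicate 2 gave 4, 19 and 17 in siControl, siPFDN5 and the average, 1 and 17 in siPFDN5 before and after serum, and 10 in the siPFDN5 difference.

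For single genes 817 alternative values were computed over 33 results, of which 623 kept direction and side of the threshold, 137 lost and 48 gained a call, and 9 changed sign, none of them among the 18 called results. Sign changed in intronic counts for MVK in siControl (0.59), FASN in siPFDN5 (0.76), TM7SF2 in siPFDN5 before serum (-0.77) and siPFDN2 after it (0.14), STARD4 (-0.0052) and FASN (0.53) in siPFDN5 after serum, and the FASN difference for siPFDN5 (1.27). Before serum in siPFDN2 FASN was at -0.023 without siPFDN2 before serum replicate 2 and at 1.58 without replicate 1, and IDI1 at 0.028 without replicate 2 with the replicate block as well. The causes were not tested. Leaving libraries out of intronic counts and their gene-body scaling were chosen after seeing the data.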
